A study of Mus musculus with 53 samples.

Results

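Mature skeletal muscle is described here through 36 genes that encode the contractile apparatus, the Z-disc, the calcium machinery and the energy supply of a finished muscle fibre. They were taken by gene symbol from the platform annotation, and each gene is given by its brightest probe set, the set of probes on the array with the highest mean log2 intensity over all arrays. Named probe sets were found for 32 of the 36 genes, among 17097 genes named on the array. Neb, Mybpc2, Smpx and Ampd1 were not measured here under these symbols. Of the 32 measured genes, 13 are typical of fast fibres, 4 of slow fibres and 15 are shared by both. By role, 6 belong to the thick filament, 7 to the thin filament, 7 to the Z-disc and cytoskeleton, 6 to calcium handling and 6 to energy metabolism.

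The 53 arrays fall into 9 groups from a mouse model of synovial sarcoma, a soft tissue tumor defined by the SS18-SSX fusion gene. Embryonic mesenchymal cells (eMCs) were prepared from the soft parts of the limbs of late BALB/c embryos and transduced with a retrovirus, either the empty pMYs-IRES-GFP vector (n = 4) or one that carries human FLAG-tagged SS18-SSX1 (n = 4), and both were collected 48 h later. The SS tumors (n = 12) grew after eMCs with SS18-SSX1 were injected under the skin of nude mice, and the SS214 tumors (n = 13) after injection of eMCs in which 1 vector carried both SS18-SSX1 and the microRNA miR-214. A mix of normal mouse tissues (n = 4) and 2 mouse synovial sarcoma cell lines, SS40 and SS64, each transfected with a negative control (NC) or with miR-214 (n = 4 in each of the 4 groups), complete the series. As models, the eMCs are a mixed embryonic culture in which the vector's promoter drives the fusion gene in any infected cell, each cell line stands for 1 line only, and the tumors were described as growing into the neighbouring skeletal muscle. The mix pools muscle with brain, heart, kidney, liver, lung, skin, intestine, ovary and bone marrow in proportions that are not given. The methods call this mix human where the labels call it mouse, and it was taken as mouse here. It is a reference that holds muscle and not a muscle sample. For tumors, each array is a separate tumor; for the cultures and the mix nothing in the labels says that the arrays came from separate cultures or animals, and p-values then measure only the spread between these arrays, which may be technical.

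A muscle fibre contracts when calcium, released from the sarcoplasmic reticulum, binds troponin on the thin actin filament and lets the myosin heads of the thick filament pull. Fast and slow fibres build the same sarcomere from different gene copies of myosin, troponin, calcium pump and Z-disc proteins, and mouse limb muscle is made mostly of fast fibres. Myogenic factors of the MyoD family bind E-boxes, and MEF2 and serum response factor bind the MEF2 site and the CArG box, in the promoters and enhancers of many of these genes. All of them are mature fibre genes in adult muscle, while embryonic myotubes use some of the light chain, troponin and actin genes before the adult myosin heavy chains come on.

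The 250 bases before a RefSeq start of 4 genes are shown because these genes stand for the patterns described below: Ckm and Myh4, far higher in tumors than in eMCs, Tnnc2, also higher after 48 h of SS18-SSX1, and Tnni1, a slow fibre gene. They come from RefSeq on the GRCm38.p6 build, 5′ to 3′ on the strand of the gene, with E-boxes (CANNTG), MEF2 sites and CArG boxes in capitals. The Tnni1 stretch lies before a start inside the annotated span of that gene, chr1:135783033-135810989, while the other stretches end where the annotated gene begins. The first start listed for each gene was used.
Ckm, chr7:19410844-19411093, plus strand: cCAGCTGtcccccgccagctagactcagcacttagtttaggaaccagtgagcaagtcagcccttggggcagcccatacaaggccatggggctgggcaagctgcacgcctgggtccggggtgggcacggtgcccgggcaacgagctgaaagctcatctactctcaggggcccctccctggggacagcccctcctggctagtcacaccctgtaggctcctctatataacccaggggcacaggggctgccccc
Myh4, chr11:67237562-67237811, plus strand: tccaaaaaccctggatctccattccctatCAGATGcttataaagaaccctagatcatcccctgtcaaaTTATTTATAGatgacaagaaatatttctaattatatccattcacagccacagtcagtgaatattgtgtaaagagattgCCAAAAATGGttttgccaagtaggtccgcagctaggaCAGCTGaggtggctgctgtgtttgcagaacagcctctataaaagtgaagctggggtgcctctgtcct
Tnnc2, chr2:164779735-164779984, minus strand: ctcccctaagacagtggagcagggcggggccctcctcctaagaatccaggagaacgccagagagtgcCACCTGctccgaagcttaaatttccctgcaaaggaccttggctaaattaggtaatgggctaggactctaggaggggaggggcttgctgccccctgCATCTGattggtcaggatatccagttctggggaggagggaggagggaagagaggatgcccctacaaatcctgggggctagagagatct
Tnni1, chr1:135799171-135799420, plus strand: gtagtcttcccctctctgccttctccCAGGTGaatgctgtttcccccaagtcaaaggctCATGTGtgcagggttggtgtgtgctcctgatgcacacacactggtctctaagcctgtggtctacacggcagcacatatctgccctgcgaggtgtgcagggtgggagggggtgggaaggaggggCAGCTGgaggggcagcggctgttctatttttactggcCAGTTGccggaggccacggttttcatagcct

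The Ckm promoter holds 1 E-box, that of Myh4 holds 2 E-boxes, 1 MEF2 site and 1 CArG box, that of Tnnc2 holds 2 E-boxes and that of Tnni1 holds 4 E-boxes. RefSeq promoters were matched for 24 of the 32 measured genes. An E-box lay in 20 of these 24 (83.3%), beside 66% of the 27025 genes with a promoter in the same table. A MEF2 site lay in 5 of 24 (20.8%, beside 3.01% of all genes), namely those of Myh1, Myh4, Pgam2, Pvalb and Ttn. A CArG box lay in 2 of 24 (8.33%, beside 1.4%), namely those of Acta1 and Myh4. Both strands were searched, overlapping matches were allowed, and a match is a description of letters and not of a bound factor.

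Values are log2 of the deposited intensity, floored at 11.7 (log2 3.55), the level under which the dimmest 20% of probe sets lie in the median array. The highest intensity in the table is 13.43 on the log2 scale and 11 of the 32 members came within 1 log2 unit of it in some array, so the brightest values may understate differences. Array medians ranged from 22.5 to 26.9 intensity units, and 0 array pairs held identical values. RNA integrity was read from Gapdh, whose 3′ probe set exceeds its 5′ one where RNA is broken. On the log2 scale this excess was 0.33 to 1.43 in the SS tumors and -0.05 to 0.48 in the SS214 tumors, beside 0.04 to 0.07 in the mix, -0.33 to 0.19 in the lines, and -0.02 to 0.06 and -0.17 to -0.12 in eMCs without and with SS18-SSX1.

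**Figure D1:**
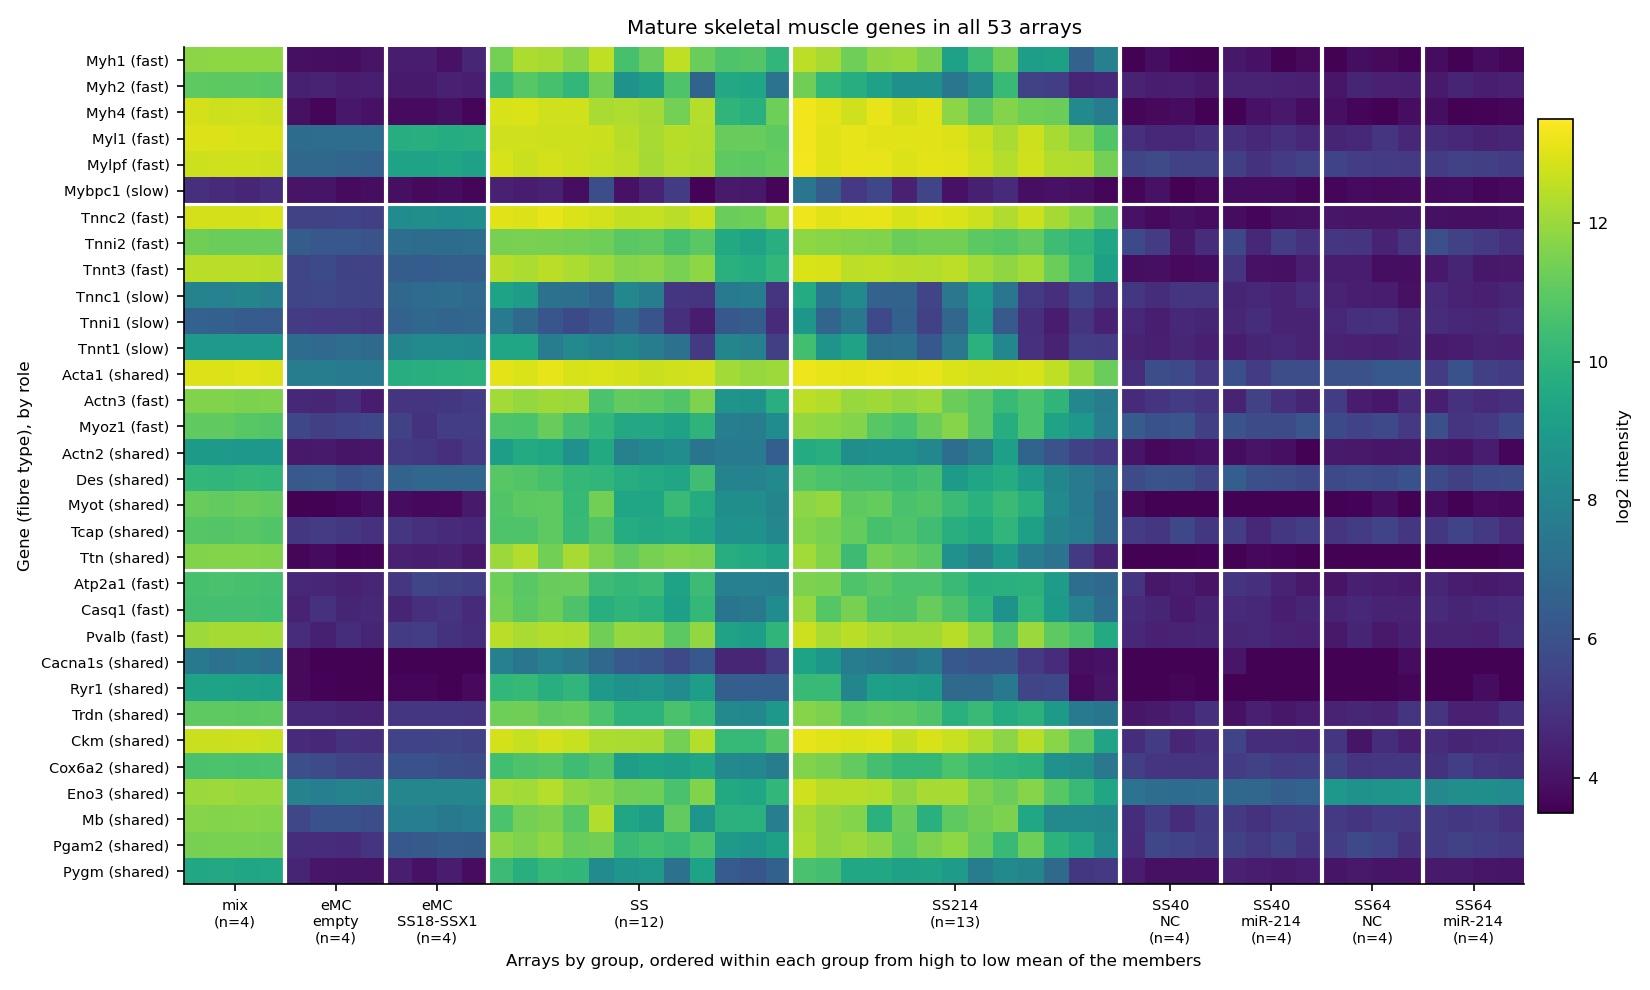
Level of each of the 32 measured genes in each of the 53 arrays, as log2 intensity on a colour scale, with genes in rows grouped by role and arrays in columns grouped by sample group. On average fast and shared genes are brighter in the tumors and the mix than in the eMCs and the lines. Some, such as Acta1 in the eMCs and Eno3 in SS64, have clear levels in culture. Levels differ from tumor to tumor, with tumor 9 the lowest of the SS214 tumors for 24 of the 32 genes.

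The first comparison asked how the tumors differed from the parental cells. Mature muscle genes stood far higher in the SS tumors than in empty-vector eMCs: 29 of 32 members passed the test upward and 0 downward (limma, adjusted p under 0.05 and fold over 2), where 14.5% of all 15625 genes tested passed upward and 8.7% downward. The median difference over the members was 5.06 on the log2 scale, against -0.03 over all genes. For 28 members every tumor lay above every eMC array, which held for 25.8% of all genes. In bulk tissue, a larger number of cells of a type and more RNA per cell cannot be told apart, here or in any result below.

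Among the thick filament genes, Myh4 and Myh1, adult fast myosin heavy chains, differed most. Myh4, the heavy chain of the fastest fibres, stood at 9.86 in the lowest SS tumor, 12.27 at the median and 12.94 in the highest, and at 4.14, 4.00, 3.64 and 3.97 in the 4 eMC arrays. The groups were far apart, and the eMC values lay close to the floor. The difference was 7.99 (SE 0.49, adjusted p = 1.79e-10), a 254-fold higher intensity in the tumors, while the other, dimmer probe set of Myh4 gave 1.82. Myh1, the heavy chain of fibres next in speed, was 7.54 higher (SE 0.38, 186-fold), at 11.45 ± 0.82 (SD, n = 12) against 3.91 ± 0.09 (SD, n = 4). This Myh1 probe set may cross-hybridise, and the other Myh1 probe sets gave 7.07, 2.47 and 0. Myh2, the heavy chain of the fatigue-resistant fast fibres, was 5.19 higher (SE 0.66, 36.6-fold) and varied more, from 6.71 to 11.34 among tumors. The essential light chain Myl1 was 5.15 higher (SE 0.32) and the regulatory light chain Mylpf 5.40 higher (SE 0.34). Both light chains started from clear levels in eMCs, 7.06 ± 0.03 and 6.79 ± 0.12. Mybpc1, the slow form of myosin-binding protein C, was dim in all groups and did not pass, at 4.36 ± 0.65 in tumors and 3.93 ± 0.13 in eMCs (difference 0.43, SE 0.30, adjusted p = 0.222).

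The thin filament holds fast and slow copies of each troponin subunit. Tnnc2, the calcium-binding troponin C of fast fibres, ranged from 11.25 over a median of 12.64 to 13.13 in SS tumors and was 5.53, 5.41, 5.47 and 5.42 in eMCs. No tumor came near the eMC levels, and the difference was 7.02 (SE 0.30, adjusted p = 1.21e-12, 130-fold). Tnnt3, the fast troponin T that binds tropomyosin, was 5.92 higher (SE 0.47, 60.6-fold), at 11.49 ± 1.01 against 5.57 ± 0.14. Tnni2, the fast inhibitory troponin I, was 4.54 higher (SE 0.37), at 10.77 ± 0.79 against 6.23 ± 0.16. Its probe set may cross-hybridise, and the other bright Tnni2 probe set gave 6.58 while a dim one gave 0.09. Acta1, the skeletal actin of both fibre types, was 5.02 higher (SE 0.19, 32.4-fold), at 12.68 ± 0.41 against 7.67 ± 0.05.

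The slow troponins behaved otherwise. Tnnc1, the troponin C of slow and cardiac muscle, ranged from 4.99 over 7.44 to 9.32 in the tumors and was 5.55, 5.44, 5.64 and 5.60 in eMCs. It lay above all eMC arrays in 9 tumors and below all of them in 3, and its difference of 1.60 (SE 0.67, adjusted p = 0.0465, 3.02-fold) passed narrowly. When 1 array at a time was left out the call was lost in 13 of 16 cases, with differences of 1.40 without tumor 18 to 1.79 without tumor 30. It was also lost after quantile normalization (1.44, adjusted p = 0.0792) and without the filter on dim probe sets (adjusted p = 0.0758). Tnni1, the slow troponin I, was 5.99 ± 0.98 in tumors and 5.16 ± 0.08 in eMCs, and the difference of 0.83 (SE 0.45) did not pass (adjusted p = 0.116). Tnnt1, the slow troponin T, was 7.68 ± 1.29 and 7.00 ± 0.07, and its difference of 0.68 (SE 0.59) did not pass either (adjusted p = 0.323). Over the fibre classes, all 13 fast genes passed, with a median difference of 5.40 (4.06 to 7.99), as did all 15 shared genes with a median of 4.66, while 1 of 4 slow genes passed, with a median of 0.76. The classes themselves were not tested against each other.

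All 7 Z-disc and cytoskeletal genes were higher. Ttn, the giant titin filament that spans the sarcomere from Z-disc to M-line, ranged from 9.28 over 11.49 to 12.33 in tumors and was 3.61, 3.62, 3.80 and 3.62 in eMCs. The eMC level was near the floor, and the difference was 7.49 (SE 0.48, adjusted p = 2.79e-10, 179-fold), with 5.97 and 4.59 for the other Ttn probe sets. The fast alpha-actinin Actn3, which cross-links actin at the Z-disc, was 6.29 higher (SE 0.57, 78.1-fold), and the Z-disc organiser myotilin, Myot, 6.20 higher (SE 0.51). Desmin, Des, the intermediate filament that ties Z-discs together, differed least in this group, at 9.66 ± 1.07 against 6.22 ± 0.15 (3.43, SE 0.50, 10.8-fold). The other probe set of Des stayed at the floor and showed -0.07. Telethonin (Tcap), calsarcin (Myoz1) and the alpha-actinin shared by both fibre types (Actn2) were 4.66, 4.06 and 4.18 higher. For Myoz1, the other, dim probe set gave 0.35.

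Calcium handling genes passed in 6 of 6 cases. Pvalb, parvalbumin, the calcium buffer of fast fibres, ranged from 9.07 over 11.89 to 12.48 in tumors and was 4.62 ± 0.21 in eMCs, a difference of 6.69 (SE 0.56, adjusted p = 1.14e-08, 103-fold). The calcium pump of fast fibres, Atp2a1, was 5.34 higher (SE 0.63, 40.4-fold), at 9.88 ± 1.36 against 4.55 ± 0.11. Trdn, triadin, of the calcium release complex, was 5.57 higher, the calcium store protein Casq1 5.10 and the release channel Ryr1 4.99. The 6 probe sets of Trdn spread from 0 to 5.57, and the other probe set of Ryr1 gave 3.15. Smallest was Cacna1s, the voltage sensor of the fibre membrane, at 2.75 (SE 0.55, adjusted p = 0.000275), from 3.60 ± 0.10 in eMCs.

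Energy metabolism genes also passed in 6 of 6 cases. Ckm, the muscle creatine kinase that buffers ATP, ranged from 10.20 over 12.24 to 12.84 in tumors and was 4.93, 4.83, 4.62 and 4.70 in eMCs. Even the lowest tumor was far above the eMCs, and the difference was 7.12 (SE 0.45, adjusted p = 2.76e-10, 139-fold). Mb, the oxygen store myoglobin, was 10.23 ± 1.32 in tumors and 5.89 ± 0.18 in eMCs, a difference of 4.34 (SE 0.61), although its other, dim probe set showed -0.32. The muscle phosphoglycerate mutase Pgam2 was 5.69 higher, the glycogen phosphorylase Pygm 4.34, and the heart and muscle subunit of cytochrome oxidase, Cox6a2, 3.81. Eno3, the muscle enolase, differed least, at 3.28 (SE 0.47, 9.71-fold), from a level of 7.91 in eMCs.

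**Figure D2:**
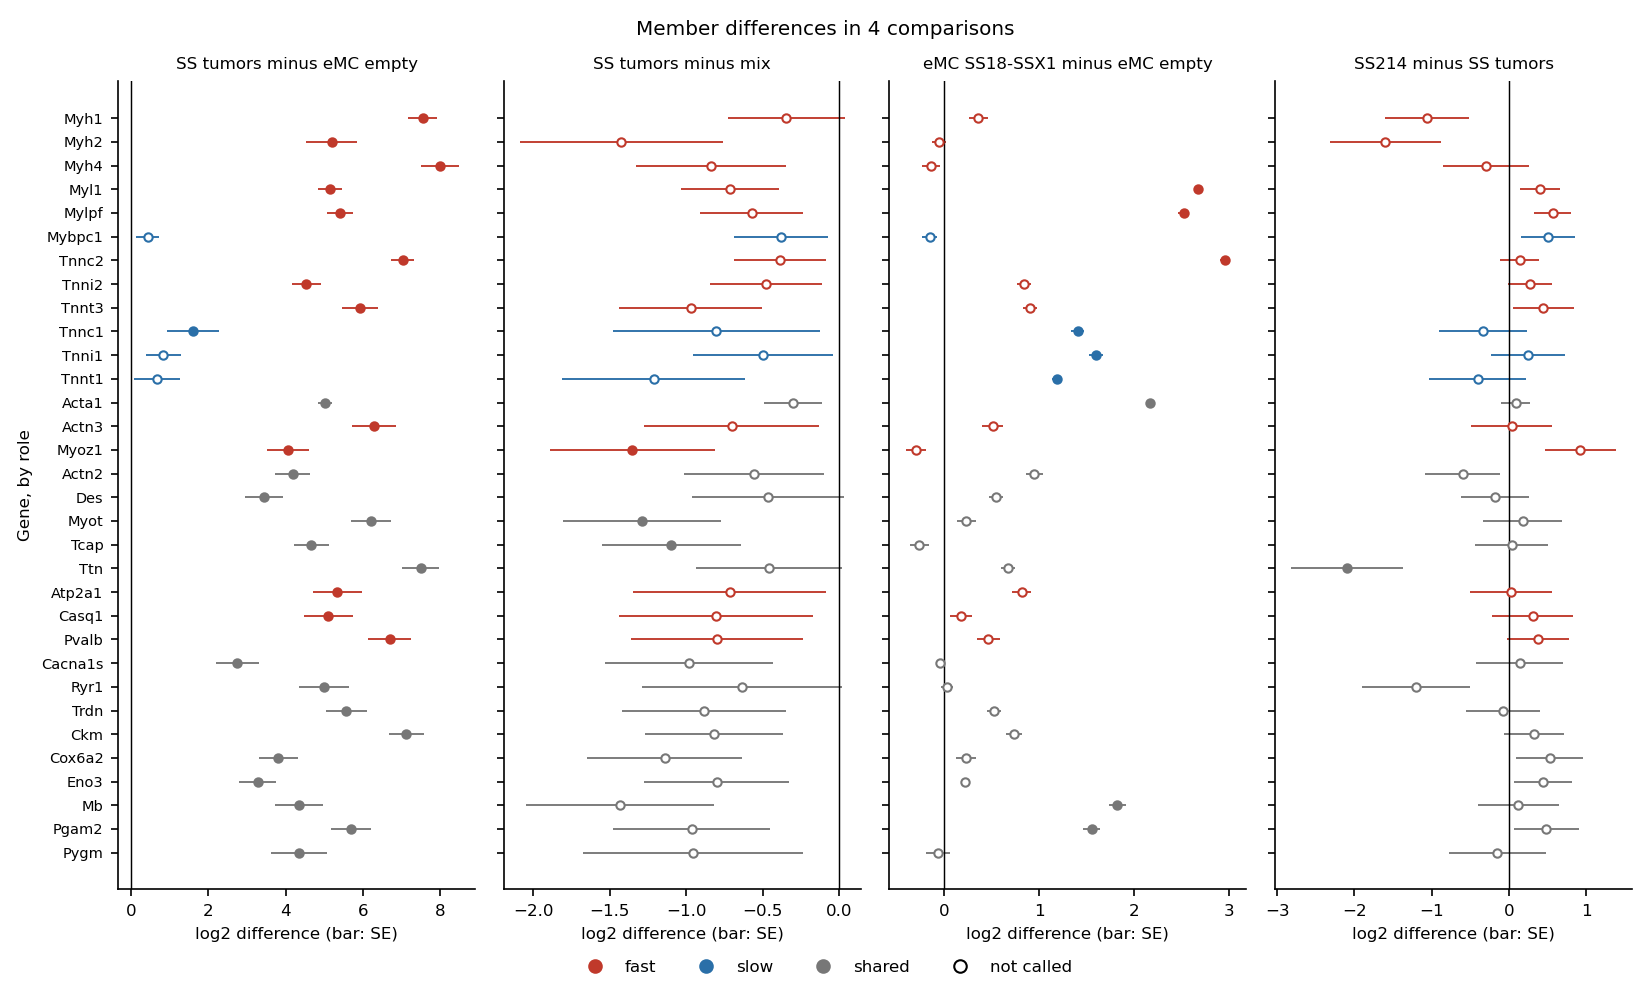
Log2 difference of each of the 32 genes in 4 comparisons, with bars for the standard error, filled points for genes that passed the test and colours for the fibre class. Fast and shared genes lie far above 0 in tumors minus eMCs, all genes lie below 0 in tumors minus mix, 9 genes pass in eMCs with SS18-SSX1, and Ttn alone passes in SS214 minus SS.

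Both sarcoma cell lines held these transcripts at far lower levels than the tumors. Against the SS40 line with the negative control, 31 of 32 members were higher in the SS tumors and 0 lower (16.3% of 15619 genes were higher and 11.3% lower), with a median difference of 5.22. Against the SS64 line with the negative control the counts were again 31 and 0 (15.5% of 15645 genes higher, 10.4% lower), with a median of 5.19. In both comparisons the gene that did not pass was Mybpc1, at 0.63 (adjusted p = 0.0768) and 0.61 (adjusted p = 0.0838). Here all 3 slow troponins passed: Tnnt1 averaged 4.46 in each line with the negative control, Tnni1 4.53 in SS40 and 4.76 in SS64, and Tnnc1 4.99 and 4.26. Ttn was at the floor in all 4 SS64 arrays with the negative control, so that its difference is a bound, at least 195-fold higher in the tumors. Ckm averaged 4.87 ± 0.28 in SS40 and 4.58 ± 0.43 in SS64, and Myh4 3.68 ± 0.12 and 3.75 ± 0.18. Both comparisons and the one with eMCs share the same SS tumors.

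Summed over the 32 members, the intensity was 23780 to 105396 in SS tumors (median 65279), 14944 to 144860 in SS214 tumors (median 82785) and 93389 to 95794 in the mix. In eMCs it was 1607 to 1716 without and 4593 to 4727 with SS18-SSX1, and in the lines it came to 898 to 1276. The tumors thus spanned several-fold around the level of a mix that holds normal muscle, and every tumor lay above every culture. Sums depend mostly on the brightest probe sets.

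**Figure D3:**
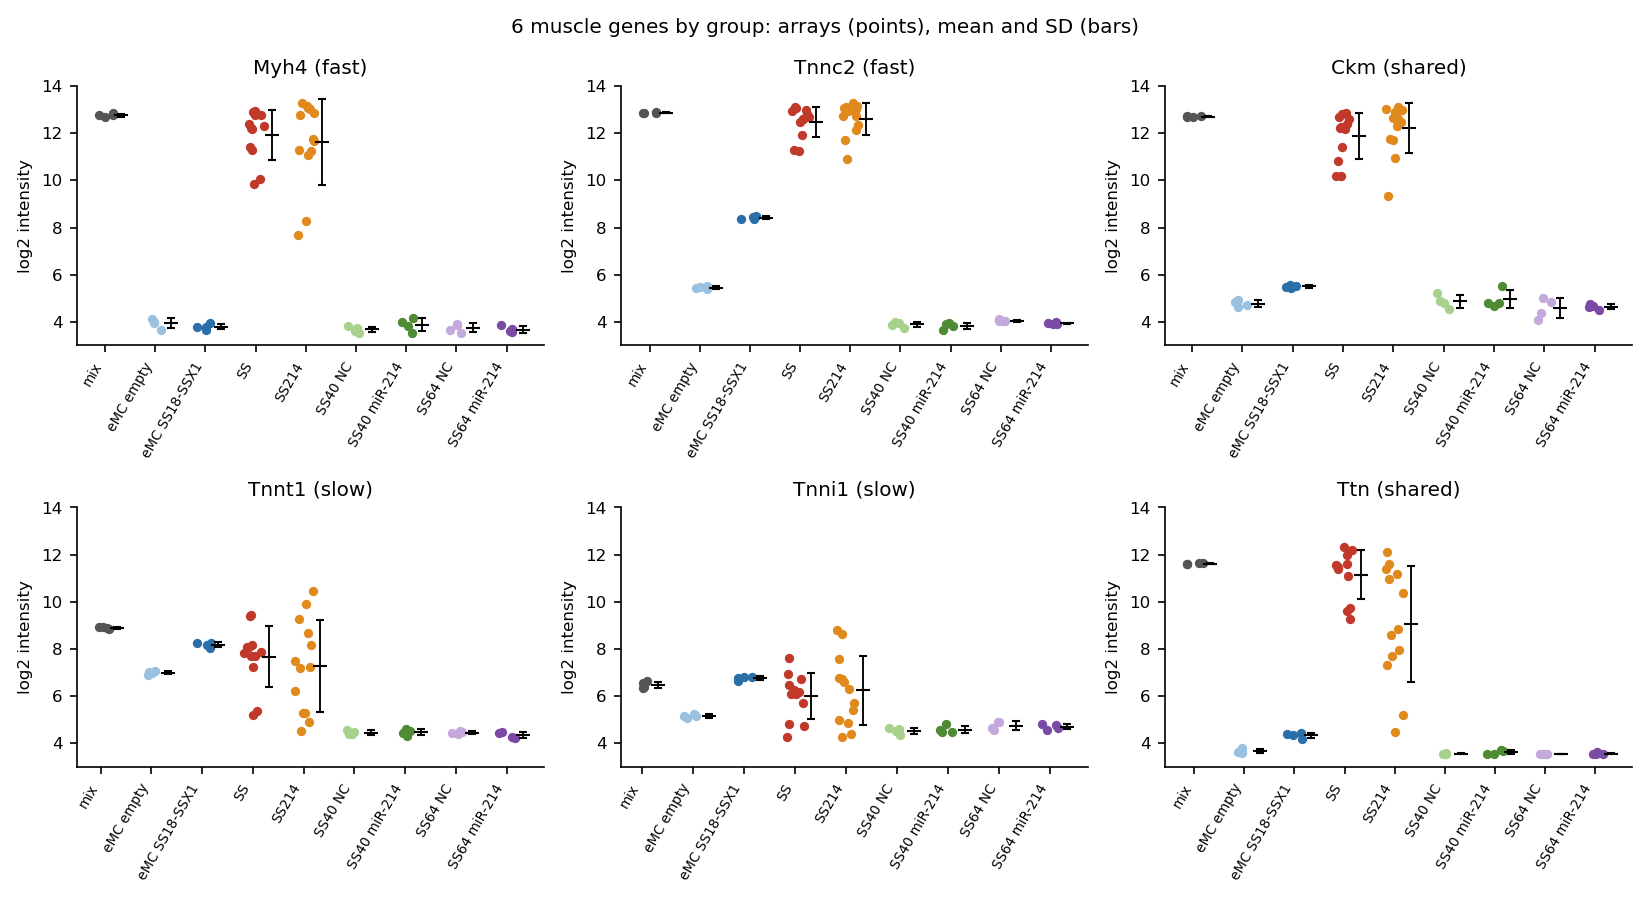
Log2 intensity of 6 genes in each array of the 9 sample groups, with points for arrays and bars for the mean and SD. Myh4, Tnnc2, Ckm and Ttn are high in both tumor groups and in the mix, Tnnc2 is higher in eMCs with SS18-SSX1 (8.41) than without it (5.46), and the slow genes Tnnt1 and Tnni1 spread widely over the tumors.

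The second comparison set the tumors beside normal tissues. All 32 members averaged lower in the SS tumors than in the mix, with a median difference of -0.80 against 0.07 over all 15679 genes tested, but 3 passed the test downward and 0 upward, where 13.8% of all genes passed downward and 11.3% upward. Myl1 was the only member with every tumor below every mix array, which held for 20.5% of all genes, and it did not pass (-0.71, adjusted p = 0.0654). The called genes were 3 Z-disc proteins. Myoz1, a calsarcin of fast fibres, ranged from 7.74 over 9.77 to 11.17 in tumors and was 10.97 ± 0.11 in the mix, and fell by 1.35 (SE 0.54, adjusted p = 0.0408). Myot fell by 1.29 (SE 0.51, adjusted p = 0.0419) and Tcap by 1.10 (SE 0.45, adjusted p = 0.0484). Each lay below all mix arrays in 11 of 12 tumors and above them in 1. The Gapdh 3′ to 5′ log2 ratio also separated these groups, at 0.33 to 1.43 in the SS tumors and 0.04 to 0.07 in the mix. The part of RNA integrity in the differences from the mix was not tested.

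The count of 3 stayed with no floor, with the floor at the 40th percentile and with no fold threshold, but not under every setting. None passed after quantile normalization, without the filter on dim probe sets, or when any 1 of the 4 mix arrays or SS tumor 20 or 5 was left out, while 6 members passed without SS tumor 22 or 28. The largest difference from the mix was that of Mb, -1.43 (SE 0.61, adjusted p = 0.0561), with Myh2 at -1.42 (adjusted p = 0.0785) and Tnnt1 at -1.21 (adjusted p = 0.0962). In calcium handling, Cacna1s differed most (-0.98) and Ryr1 least (-0.64). Smallest of all was Acta1, at -0.30 (SE 0.19, adjusted p = 0.193), beside -0.35 for Myh1, -0.46 for Ttn and -0.80 for Eno3, and none of these passed. Markers of other tissues were also lower in tumors than in the mix: smooth muscle genes fell in 6 of 7 cases, endothelial genes in 7 of 8 and keratinocyte genes in 4 of 8. Over all genes 13.8% were lower.

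The third comparison asked what SS18-SSX1 did within 48 h in culture. In eMCs with SS18-SSX1, 9 of 31 members tested were higher and 0 lower than with the empty vector, where 2.73% of 15328 genes were higher and 0.92% lower. For 19 members all 4 arrays with the fusion gene lay above all 4 without it, which held for 28% of all genes. The median difference was 0.55. At the adjusted p alone, without the fold threshold, 21 members were higher and 1 lower, where 29.4% of all genes were higher and 19.5% lower.

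The called genes came from the thin filament in 5 cases, the thick filament in 2 and energy metabolism in 2, with none from the Z-disc or calcium handling. Tnnc2 rose most: the arrays with SS18-SSX1 read 8.38, 8.43, 8.35 and 8.48 and those with the empty vector 5.53, 5.41, 5.47 and 5.42. The groups were separated by far more than their spread, and the difference was 2.95 (SE 0.05, adjusted p = 2.78e-15, 7.75-fold). Myl1 rose from 7.06 to 9.73 (2.67, adjusted p = 9.78e-17, 6.35-fold) and Mylpf from 6.79 to 9.30 (2.52, 5.73-fold). Acta1 rose from 7.67 ± 0.05 to 9.83 ± 0.09 (2.17, adjusted p = 1.23e-14, 4.48-fold), and Mb from 5.89 to 7.71 (1.82, 3.54-fold). The dim probe set of Mb showed -0.20, and as the mean over both probe sets Mb differed by 0.81, under the fold threshold. Pgam2 rose by 1.55 (2.94-fold).

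All 3 slow troponins were among the called genes. Tnni1 read 6.64, 6.82, 6.77 and 6.81 with SS18-SSX1 and 5.14, 5.07, 5.16 and 5.26 without it, a rise of 1.60 (SE 0.07, adjusted p = 6.63e-11, 3.04-fold). Tnnc1 rose by 1.41 (2.65-fold) and Tnnt1 by 1.19 (2.28-fold). Their levels with SS18-SSX1, 6.76, 6.96 and 8.18, lay inside the range of the SS tumors, which was not so for Tnnc2, Myl1, Mylpf and Acta1. The adult heavy chains did not pass: Myh1 differed by 0.36 (adjusted p = 0.00899, under the fold threshold), Myh2 by -0.05 (adjusted p = 0.603) and Myh4 by -0.14 (adjusted p = 0.263). Ckm differed by 0.74 (adjusted p = 3.28e-06), Ttn by 0.68, Tnnt3 by 0.91, Tnni2 by 0.84, Actn2 by 0.95, Atp2a1 by 0.82, Des by 0.55 and Pvalb by 0.47, all less than 2-fold. The other bright probe set of Tnni2, however, differed by 1.85, above the fold threshold, so that Tnni2 is uncertain here. Myoz1 was lower at the adjusted p alone (-0.30, adjusted p = 0.0346), and Mybpc1 differed by -0.15. Cacna1s was too dim to be tested. In a single fit of all 53 arrays with 1 shared spread, 4 members passed upward, namely Tnnc2, Myl1, Mylpf and Acta1.

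Markers of other cell types moved in the same cultures, where 2.73% of all genes were higher and 0.92% lower. Of the embryonic and fetal muscle genes 4 of 7 rose, led by the perinatal myosin heavy chain Myh8 (2.36) and the embryonic and atrial light chain Myl4 (2.33). Of the myogenic regulators 2 of 9 rose, the fusion peptide Mymx by 1.80 and the acetylcholine receptor subunit Chrna1 by 1.12. Other skeletal muscle genes rose in 5 of 24 cases, led by Klhl41 (1.86) and Asb5 (1.42). Of 3 Schwann cell genes 1 rose, Mbp, and 1 fell, S100b. Smooth muscle genes rose in 5 of 7 cases (Actg2 by 3.74), endothelial genes in 7 of 8 (Emcn by 3.54) and adipocyte genes in 2 of 5, while 0 of 11 cardiac and slow muscle genes and 0 of 7 keratinocyte genes passed. The summed intensity of the smooth muscle list was 2205 to 2257 with the empty vector and 5676 to 5950 with SS18-SSX1, and that of the endothelial list 210 to 225 and 1038 to 1082. The part of a changed mix of cells in the result for the members was not tested.

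The fourth comparison asked whether tumors whose vector carried miR-214 differed. The study also reports raised miR-214 in tumors SS18, SS19 and SS23, which had retroviral insertions at the Dnm3 locus, and in several tumors without such insertions. The SS tumors are thus not all free of miR-214. Against the SS tumors, 1 of 32 members was lower and 0 higher, where 1.06% of 15644 genes were lower and 0.946% higher. The median difference was 0.13 against 0.04 over all genes, and 21 members averaged higher and 11 lower. Ttn was the called gene. It ranged from 9.28 over 11.49 to 12.33 in the SS tumors and from 4.50 over 8.86 to 12.13 in the SS214 tumors. The groups overlapped, but 7 of 13 SS214 tumors lay below every SS tumor, and Ttn fell by 2.10 (SE 0.72, adjusted p = 0.0228, 4.28-fold lower). All 3 Ttn probe sets showed it, from -1.84 to -2.29. The difference was -1.72 without SS214 tumor 9 and -2.35 without SS214 tumor 15.

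No other member passed. Ryr1 was at -1.20 (SE 0.69, adjusted p = 0.173), with -1.03 for its other probe set, and Actn2 at -0.60. Among the thick filament genes, Myh2 was at 9.55 ± 1.43 in SS and 7.95 ± 2.29 in SS214 tumors (-1.60, SE 0.72, adjusted p = 0.0807) and Myh1 at 11.45 ± 0.82 and 10.39 ± 1.83 (-1.06, adjusted p = 0.122). Both passed in the single fit of all arrays, which called 3 members lower. Myh4 differed by -0.29 (adjusted p = 0.705), and its 2 probe sets disagreed in direction, with 0.84 for the other. On the positive side were Myoz1 (0.93, adjusted p = 0.113), Mylpf (0.57, adjusted p = 0.0578), Cox6a2 (0.53), Mybpc1 (0.51), Tnnt3 (0.45), Eno3 (0.44), Pvalb (0.38) and Ckm (0.33, SE 0.39, adjusted p = 0.525), none of which passed. The remaining differences were small against their errors, among them Pygm (-0.15), Tnnt1 (-0.40), Acta1 (0.09), Tnnc2 (0.14), Tnni1 (0.25), Tnni2 (0.27), Tnnc1 (-0.33), Mb (0.12), Des (-0.17) and Atp2a1 (0.03).

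The 2 tumor groups differed in RNA integrity, which moves with this result. The Gapdh 3′ to 5′ log2 ratio averaged 0.85 ± 0.37 in SS and 0.06 ± 0.14 in SS214 tumors, and 12 of 13 SS214 tumors lay below the lowest SS tumor. The part of this difference in the levels of the members was not tested. In 9 of the 13 SS214 tumors the ratio lay below that of the highest eMC array with the empty vector. Set beside those eMCs without a test, the SS214 tumors differed by a median of 5.05 over the members (0.28 to 7.69). No value over all genes was taken for this pair, and the part of RNA integrity in it was not tested.

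The fifth comparison followed miR-214 into the 2 lines. In SS40, 0 of 28 members tested passed in either direction (0.0194% of 15443 genes were higher and 0.181% lower). At an unadjusted p under 0.05 there were 4 members, among 1761 genes in all. In SS64, 0 of 29 members passed (0.0584% of 15403 genes higher and 0.182% lower), with 4 members among 3879 genes at an unadjusted p under 0.05. Eno3, the enolase gene, averaged 7.11 with the negative control and 6.71 with miR-214 in SS40 (-0.40, adjusted p = 0.228) and 8.72 and 8.36 in SS64 (-0.36, adjusted p = 0.00614, under the fold threshold). Acta1 averaged 6.12 and 5.49 in SS64 (-0.62, adjusted p = 0.0306) and 5.39 and 5.72 in SS40. At the adjusted p alone, Eno3 and Acta1 were the 2 members lower in SS64 and 0 were higher, where 8.02% of all genes were lower and 4.9% higher. The difference between the 2 lines in their response was tested for 31 members and passed for 0, with 2 at an unadjusted p under 0.05, Acta1 (-0.96, adjusted p = 0.31) and Tnnc1 (0.66, adjusted p = 0.0963).

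Tumors differed widely among themselves in these genes. In SS tumors the SD over tumors had a median of 1.08 over the members, from 0.41 for Acta1 to 1.55 for Pygm, against 0.21 over all 15644 genes. Of the 32 members, 31 were among the 10% of genes with the largest SD, and 20 spanned more than 8-fold between the lowest and the highest tumor. In SS214 tumors the median SD was 1.46, from 0.52 for Mylpf to 2.47 for Ttn, against 0.25 over all genes. There, 30 members were among the top 10% and 27 spanned more than 8-fold.

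Levels of different probe sets cannot be set against each other, so each tumor was described by its mean difference from the mix over the 13 fast genes and over the 4 slow genes. In SS tumors the fast mean ran from -2.33 over -0.69 to 0.20 and the slow mean from -2.50 over -0.50 to 0.67. In SS214 tumors the fast mean ran from -3.27 over -0.46 to 0.68 and the slow mean from -2.60 over -0.73 to 2.07. On average, then, fast and slow genes were both somewhat below the mix in both groups, at -0.78 and -0.72 in SS and at -0.73 and -0.72 in SS214. In fast genes the cultures lay further below the mix, and in slow genes so did all of them but the eMCs with SS18-SSX1. The fast mean was -6.64 and the slow mean -1.61 in eMCs with the empty vector, -5.74 and -0.60 with SS18-SSX1, and between -7.34 and -7.20 for fast and between -2.71 and -2.59 for slow genes in the lines. In the mix the fast probe sets stood on average 8.26 above the floor on the log2 scale and the slow ones 3.47, so the slow mean cannot fall as far, and nothing is read from the gap between fast and slow genes in the cultures.

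Single tumors departed from the mix in both directions. SS tumors 24 and 29 were low in fast genes (-2.33 and -2.26) and much less so in slow genes (-0.46 and -0.48). Tumor 23 showed the opposite, with -0.71 for fast and -2.50 for slow genes, and tumor 30 was low in both (-2.05 and -2.32). Tumors 18 and 22 exceeded the mix in both classes, with 0.13 and 0.12 for fast and 0.67 and 0.40 for slow genes, while tumor 19 was high in fast (0.20) and low in slow genes (-0.63). The fast minus slow difference ran from -1.87 to 1.79 in SS and from -1.62 to 1.30 in SS214 tumors. Some slow means came near those of the lines (-2.71 to -2.59), so the floor limits these values as it does in the cultures. Such were SS tumors 23 (-2.50) and 30 (-2.32) and SS214 tumors 6 (-2.60) and 9 (-2.44). Tumor 24 held the lowest level for 16 members and tumor 30 for 10, while tumor 18 held the highest for 12.

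Among the SS214 tumors, tumor 15 was the highest for 29 of 32 members (fast 0.68, slow 2.07) and tumor 9 the lowest for 24 (fast -3.27, slow -2.44). Tumor 3 was also low in both classes (-2.71 and -2.09). Tumor 5 was low in fast and high in slow genes (-0.70 and 0.92), while tumors 4 and 13 were relatively low in slow genes (-2.30 and -1.31, with -0.99 and -0.03 for fast). In tumor 9 the Gapdh ratio was 0.48, the highest of the SS214 tumors, and in tumor 15 it was 0.03.

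**Figure D4:**
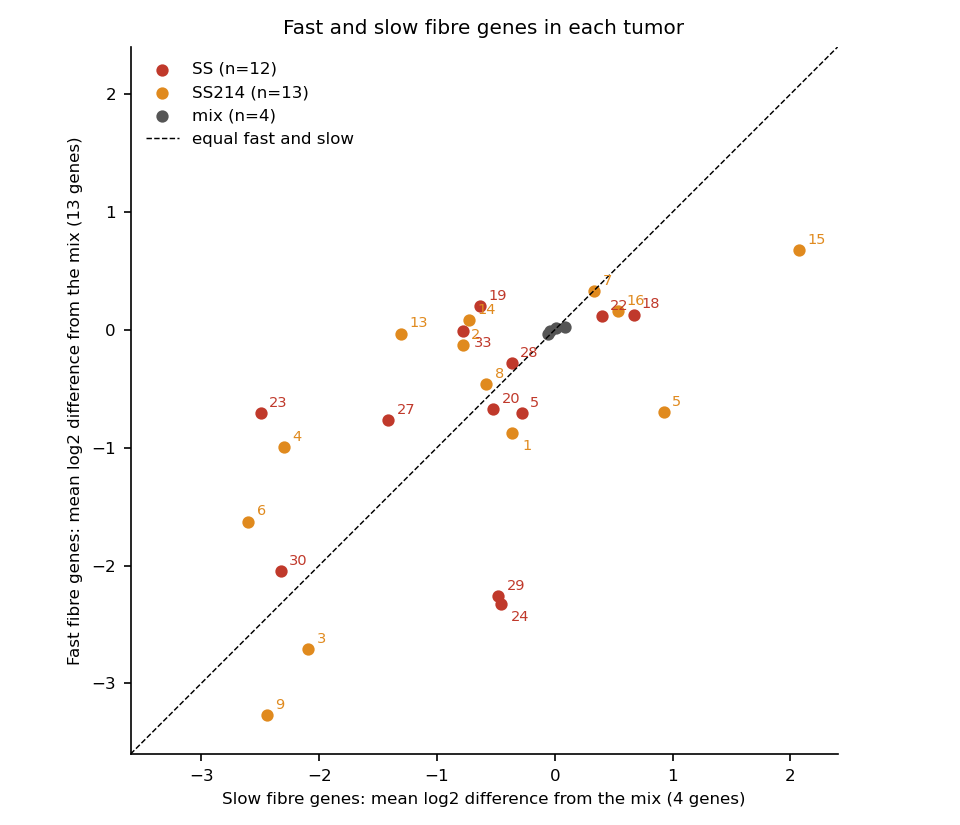
Mean log2 difference from the mix over the 4 slow genes (horizontal axis) and over the 13 fast genes (vertical axis), with 1 point for each tumor, numbered, and for each mix array. The tumors scatter on both sides of the dashed line of equal fast and slow differences, with SS tumors 24 and 29 low in fast genes, SS tumor 23 low in slow genes, SS214 tumor 9 low in both and SS214 tumor 15 high in both.

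Within the troponin complex, the balance of fast and slow subunits also differed from tumor to tumor. The fast minus slow difference of troponin T (Tnnt3 minus Tnnt1, each relative to the mix) ran from -1.77 to 3.04 in SS and from -1.36 to 3.65 in SS214 tumors. For troponin I (Tnni2 minus Tnni1) it ran from -1.95 to 1.94 and from -2.44 to 1.48, and for troponin C (Tnnc2 minus Tnnc1) from -1.36 to 2.73 and from -1.30 to 2.63. In the 4 mix arrays the troponin T value stayed between -0.02 and 0.06, and in eMCs with the empty vector the 3 means were -5.00, -3.68 and -5.01, to which the same limit applies. It also applies to tumors whose slow troponins came down to the level of the lines. In SS214 tumor 6, for example, Tnnt1 was 4.51, beside means of 4.36 to 4.47 in the lines.

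Across tumors, most members moved with Ckm. In a family of 18 relations (9 in each tumor group, two-sided permutation tests with 100000 resamples, Benjamini-Hochberg adjusted), Ckm and Myh4 correlated with r = 0.983 and rho = 0.951 in SS (adjusted p = 6e-05 and 0.00012) and with r = 0.935 and rho = 0.94 in SS214 (adjusted p = 6e-05 and 0.00012), where the raw p of 1e-05 is the smallest the permutations can give. Without the 2 tumors farthest from the median of Ckm, r was 0.968 and 0.808. Ckm and Des correlated with r = 0.97 and rho = 0.965 in SS (raw p = 1e-05 and 2e-05, adjusted p = 6e-05 and 0.00012; r without 2 tumors 0.935) and with r = 0.877 and rho = 0.907 in SS214 (raw p = 5e-05 and 6e-05, adjusted p = 0.000225 and 0.00027; r without 2 tumors 0.782).

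The slow troponins followed Ckm less closely. Ckm and Tnni1 had r = 0.225 and rho = 0.203 in SS (raw p = 0.48 and 0.528, adjusted p = 0.509 and 0.559; r without 2 tumors 0.62), and r = 0.566 and rho = 0.637 in SS214 (raw p = 0.038 and 0.0222, adjusted p = 0.0759 and 0.05; r without 2 tumors 0.398). Ckm and Tnnt1 had r = 0.291 and rho = 0.371 in SS (raw p = 0.362 and 0.239, adjusted p = 0.434 and 0.269; r without 2 tumors 0.628) and r = 0.54 and rho = 0.593 in SS214 (raw p = 0.0495 and 0.0365, adjusted p = 0.0891 and 0.0729; r without 2 tumors 0.417). Neither relation passed by Pearson's r in either group. Ckm and Mb had r = 0.402 and rho = 0.441 in SS (raw p = 0.197 and 0.154, adjusted p = 0.253 and 0.184; r without 2 tumors 0.523) and r = 0.694 and rho = 0.72 in SS214 (raw p = 0.00453 and 0.00732, adjusted p = 0.0116 and 0.022), where r was 0.42 without 2 tumors, so that the relation rests on those. The difference between these correlations was not tested.

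As a description without a test, r with Ckm over the SS tumors was highest for Eno3 (0.99), Pvalb (0.989), Casq1 (0.984), Tnni2 (0.983), Tnnt3 (0.982) and Atp2a1 (0.982). It was lowest for Mybpc1 (0.08), Tnni1 (0.225), Myh2 (0.255), Tnnc1 (0.276), Tnnt1 (0.291), Mb (0.402) and Myh1 (0.525). The low end thus held all 4 slow genes together with myoglobin and the heavy chains of fibres slower than those that use Myh4. Mybpc1 was dim there (mean 4.36), and without 2 tumors r was 0.62 for Tnni1 and 0.628 for Tnnt1. In SS214 tumors the lowest were again slow genes, Tnnt1 (0.54), Tnnc1 (0.551), Tnni1 (0.566) and Mybpc1 (0.63), followed by Mb (0.694) and Myh2 (0.709). Over all 496 pairs of members the median r was 0.879 in SS and 0.897 in SS214 tumors, and 494 and 496 pairs were above 0. These correlations share arrays, probe chemistry and the scaling of each array.

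**Figure D5:**
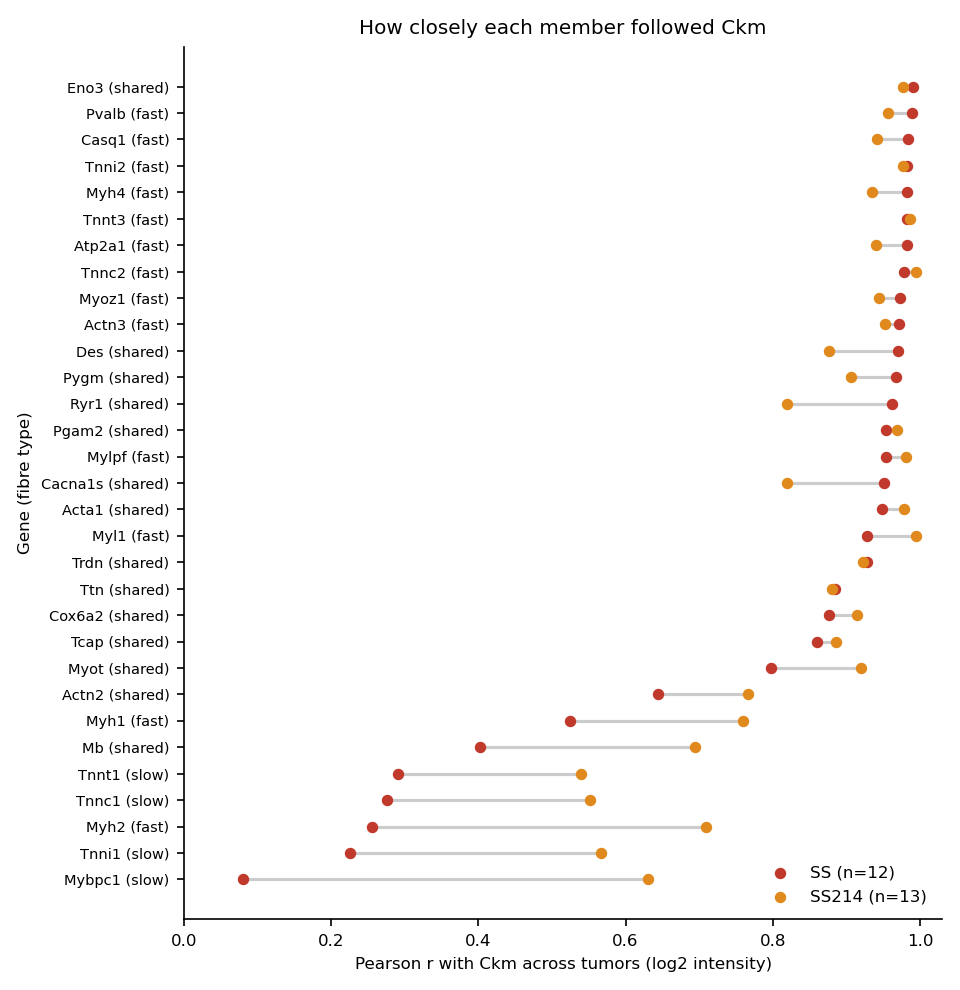
Pearson r with Ckm across tumors for each of the other 31 measured genes, for the 12 SS and the 13 SS214 tumors, with the fibre class beside each gene name. Most fast and shared genes lie near 1, while the 4 slow genes, Mb, Myh2 and Myh1 lie lower, the lowest being Mybpc1 at 0.08 in SS.

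Markers of other cells and of RNA integrity were set beside Ckm in the same family. Myog, the myogenin factor that drives myoblast differentiation, had r = 0.428 and rho = 0.497 in SS (raw p = 0.161 and 0.105, adjusted p = 0.223 and 0.153; r without 2 tumors 0.232) and r = 0.689 and rho = 0.747 in SS214 (raw p = 0.00242 and 0.00456, adjusted p = 0.00871 and 0.0164; r without 2 tumors 0.639). The fat cell hormone gene Adipoq had r = 0.78 in SS (raw p = 0.00305, adjusted p = 0.00915) with rho = 0.545 (raw p = 0.07, adjusted p = 0.115) and r = 0.444 without 2 tumors, so that the relation rests on those. In SS214 it had r = 0.49 (raw p = 0.0901, adjusted p = 0.138) and rho = 0.687 (raw p = 0.0122, adjusted p = 0.0313), with r = 0.55 without 2 tumors. Krt14, a keratin of skin, had r = 0.24 and rho = 0.487 in SS (raw p = 0.48 and 0.111, adjusted p = 0.509 and 0.153; r without 2 tumors 0.142) and r = -0.000347 and rho = -0.0934 in SS214 (raw p = 0.999 and 0.764, adjusted p = 0.999 and 0.764; r without 2 tumors -0.231). The Gapdh ratio had r = 0.509 and rho = 0.552 in SS (raw p = 0.0921 and 0.0668, adjusted p = 0.138 and 0.115; r without 2 tumors -0.00631) and r = -0.774 and rho = -0.44 in SS214 (raw p = 0.0289 and 0.136, adjusted p = 0.065 and 0.175; r without 2 tumors -0.23).

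Other muscle genes outside the 36, in lists chosen with results of these data known, gave the setting. Between SS tumors and eMCs, 14.5% of all genes were higher and 8.7% lower. Of 26 other skeletal muscle genes 21 were higher and 0 lower, with a median of 2.25, led by Cmya5 (5.44), a costamere protein, and Ldb3 (4.70), a Z-disc protein. Of the cardiac and slow muscle genes 5 of 11 were higher, led by the slow light chain Myl2 (3.32) and the slow heavy chain Myh7 (2.84), and of the embryonic and fetal genes 1 of 7 was higher, the adhesion molecule Ncam1 (3.22), and 1 lower, the cardiac actin Actc1, which fell by 1.87. The myogenic regulators split, with 2 of 9 higher and 2 lower. Pax7, the factor of muscle stem cells, was 2.97 higher (SE 0.26, adjusted p = 1.93e-08), at 6.91 ± 0.54 in SS tumors and 3.94 ± 0.16 in eMCs. Myog fell by 3.76 (SE 0.27, adjusted p = 1.25e-09), from 8.83 ± 0.07 in eMCs to 5.07 ± 0.56 in tumors.

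Endothelial genes were higher in tumors than in eMCs in 6 of 8 cases, adipocyte genes in 1 of 6 (with 1 lower), smooth muscle genes in 2 of 7 (with 2 lower) and keratinocyte genes in 0 of 7, while of 3 Schwann cell genes 1 was lower. Over all genes 14.5% were higher and 8.7% lower. The summed endothelial list was 282 to 868 in SS tumors and 210 to 225 in eMCs, the adipocyte list 585 to 12946 and 4233 to 4363, and the keratinocyte list 193 to 2679 and 254 to 267. Against the mix, 2 of 26 other skeletal muscle genes were lower (median -0.80), as were 5 of 11 cardiac and slow genes, led by the atrial light chain Myl7 (-4.32), with Myl2 second in size. Over all genes 13.8% were lower than in the mix and 11.3% higher. Pax7 was 3.16 higher than in the mix, and Chrna1 1.57 higher. The part of host muscle, fat, skin and vessels in the tumor samples was not tested.

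Between SS214 and SS tumors, 0 of 26 other skeletal muscle genes, 0 of 11 cardiac and slow genes and 0 of 7 embryonic and fetal genes passed. Over all genes 0.946% were higher and 1.06% lower. Pax7 fell by 1.43 (SE 0.21, adjusted p = 1.1e-05), to 5.48 ± 0.53, while Adipoq rose by 1.64 (adjusted p = 0.0326) and the smooth muscle calponin Cnn1 by 1.92 (adjusted p = 0.0059). In the lines, 0 genes of these lists passed with miR-214. Over all genes 0.0194% were higher and 0.181% lower in SS40, and 0.0584% and 0.182% in SS64. In SS64 with the negative control, the cardiac and embryonic troponin T Tnnt2 stood at 10.42 ± 0.05 and the natriuretic peptide gene Nppb at 10.28 ± 0.05. In SS40 they stood at 4.22 ± 0.23 and 5.02 ± 0.08. The rest of their lists did not follow. Of 11 cardiac and slow genes, 5 were higher in SS tumors than in this SS64 group and 1, Nppb, lower. Of 7 embryonic and fetal genes, 2 were higher and 1, Tnnt2, lower. Over all genes 15.5% were higher and 10.4% lower.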

How the data were processed

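RNA of 53 samples was hybridised to HT MG-430 PM arrays. The authors' notes name the MAS5 algorithm (version not given), and the deposited values are linear intensity, 1 value per probe set and array, in 1 table. The genome build of the annotation is not given in the sources used here. The table holds 45141 probe sets, 104 of which are controls that were left out of the tests. Of the 45141, 28898 had 1 gene symbol, 551 several and 15692 none. For 28689 the gene ID was found in RefSeq and the symbol was taken from there. Values were set to at least 11.7, the median over arrays of the 20th percentile, and taken as log2. Probe sets that exceeded this floor in 4 or more arrays of a comparison entered limma 3.58.1 (R 4.3.3; lmFit, eBayes with trend), fitted on the 2 groups compared, with Benjamini-Hochberg adjustment over all probe sets tested. Each gene took its brightest probe set. A call required an adjusted p under 0.05 and a fold over 2. The difference in response between lines was an interaction term in 1 limma fit of the 4 line groups. Correlations and figures used Python 3.11.15, pandas 2.3.3, numpy 2.4.6, scipy 1.17.1 and matplotlib 3.10.9. The limma fits of 2 groups, and no other step, were tested on simulated data with known changes.

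The members and lists were chosen with earlier results of these data known. Named were all members by role, from each role the members with the largest and the smallest difference, every member called, and up to 2 called genes with the largest change from each other list; further genes were named after their values were seen. Replicate numbers were not used in the main tests, and the number as a block was an alternative. In SS64 all 4 same-numbered pairs of deviations correlated above 0.1 (0.346, 0.319, 0.221 and 0.283), as those of SS40 and the eMCs did not. Some differently numbered SS64 pairs correlated as strongly, such as miR-214 replicate 1 with NC replicate 2 (0.376) and 3 with 4 (0.381). Whether the numbers mark pairs thus stays unknown. The number of arrays limits the precision of every value. Alternatives were other scalings, floors, filters, probe set rules, fits and tests, and leaving out each array.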

Additional observations from a re-analysis of the deposited data

Results flagged for a closer look

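Among 57 sets of 4 to 10 arrays of 1 group and 1 gene that could be examined, 2 held an array far from the others; chance alone picks out about 1 in 20 such sets. Des was 6.70 in replicate 1 of the eMCs with SS18-SSX1, with 6.79 in the nearest of the other arrays, and this gap took up 0.891 of the group's range. Ttn was 3.80 in replicate 3 of the eMCs with the empty vector, with 3.62 in the nearest other array (0.908 of the range), a value close to the floor of 3.55. Both gaps are small beside the differences between groups for these genes.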

How the results depend on the processing

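The count of members higher in SS tumors than in eMCs stayed at 28 or 29 under every alternative run, that against SS40 at 31, and that against SS64 at 30 (without SS64 NC replicate 1) or 31. Of 166 member counts under alternatives, 157 stayed within 1.5 times, as did the direction and call of 763 of 787 member differences; 15 lost the call, 6 gained it and 3 changed sign. The 3 members lower in tumors than in the mix became 0 after quantile normalization, 0 with no filter and 0 with the methods' t-test after Benjamini-Hochberg adjustment, and 0 to 6 when each array was left out. The 1 member lower in SS214 became 3 in 1 fit of all arrays, 2 with the methods' t-test unadjusted, and 1 to 2 with an array left out (2 without SS tumor 23 or SS214 tumor 15); the 0 higher became 0 to 1 (Myoz1, without SS214 tumor 9). The 9 members higher in eMCs with SS18-SSX1 became 21 with no fold threshold and 4 in 1 fit of all arrays, and 0 lower became 1 with no fold threshold; in SS64, 0 lower became 2 with no fold threshold. With the replicate number as a block, the counts stayed at 9 and 0 in eMCs, 0 and 0 in SS40 and 0 and 0 in SS64. No member call changed. In both lines the methods' t-test also called 0 members. Signs changed for Actn3 in SS214 minus SS (-0.008, quantile normalization), and, as the mean over probe sets, for Myh4 (0.27) and Trdn (0.18). The relation of Ckm with Krt14 in SS214 was r = 0.0188 after quantile normalization and had no value at the floor of the 40th percentile, where Krt14 was constant; those of Ckm with Tnni1 (r = 0.625) and Tnnt1 (r = 0.621, adjusted p = 0.0463) in SS214 passed as the mean over probe sets. With each array left out, SS214 minus SS ran from -0.16 to 0.30 for Actn3, -0.16 to 0.28 for Atp2a1, -0.10 to 0.35 for Cacna1s, -0.33 to 0.022 for Des, -0.10 to 0.31 for Mb, -0.48 to 0.033 for Myh4, -0.36 to 0.12 for Pygm, -0.12 to 0.28 for Tcap and -0.26 to 0.14 for Trdn, and Pygm in eMCs from -0.14 to 0.059. The cause of these shifts was not tested. Signal near the floor limits what can be said of low members in the cultures.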
